A study of Homo sapiens with 8 samples.

Results

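TXNIP, ARRDC2, ARRDC3, ARRDC4, MLXIP and MLX form a small group around the cell's glucose sensor, and they were followed here in A375, a human melanoma line with an activating BRAF mutation. The 6 genes were chosen by name, and every probe set that the array annotation pairs with exactly 1 of these symbols was used, which gave 16 of 54675 probe sets and 6 of 19775 genes. TXNIP had 3 probe sets, ARRDC2, ARRDC3 and ARRDC4 had 1 each, MLXIP had 4 and MLX had 6.

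MLXIP, also called MondoA, is a transcription factor that responds to phosphorylated glucose, and MLX is the partner it needs to bind DNA. TXNIP and ARRDC4 are known targets of this pair. TXNIP and the ARRDC proteins are alpha-arrestins, adaptors that link membrane proteins to ubiquitin ligases and endocytosis. TXNIP removes glucose transporters from the cell surface and binds thioredoxin, so a high level of it is known for slowing glucose uptake, and glutamine has been described as holding MLXIP activity at TXNIP down.

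The study placed 1 array on each of 8 conditions, all A375 cells transfected with an siRNA and grown in RPMI1640 with 10% fetal bovine serum. In 5 of them the medium was varied for 18 h: siBRAF and siCont (a nontargeting siRNA) in glutamine-free medium, and siBRAF, siATF4 and siCont in normal medium. In the other 3 the cells received a drug or its solvent for 4 h: siATF4 with 10 uM vemurafenib (an inhibitor of mutant BRAF), siCont with 10 uM vemurafenib, and siCont with DMSO. All cells come from a single line, every control carries a nontargeting siRNA, and nothing in the labels describes separate cultures within a condition.

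Values are RMA intensities on a linear scale. The median intensity was 14.8 to 15.5 on the 5 medium arrays and 36.4 to 36.9 on the 3 drug arrays, so levels were compared only within each set. A difference is one of log2(intensity + 1) between a pair of arrays, which understates the change of low genes, and a fold is computed from the same values. A gene was counted as apart at 2-fold or more, a difference of 1, if its higher value reached the median of its array, the 50th percentile. With 1 array per condition there is no replicate error, so no difference has a test or p-value. ATF4 read 534 with siATF4 and 1814 with siCont in normal medium, and 757 with siATF4 and 4548 with siCont in vemurafenib. BRAF itself was not analysed here, so the siBRAF label was not checked on its target. Of 9 measured melanocyte and neural crest markers, 7 or 8 lay at or above the array median on each array, SOX10 among them, while the pigment gene MLANA lay below it on all 8. Of 8 markers of other cell types, 5 lay at or above the median on each array: the keratin genes KRT14 and KRT5, the collagen gene COL1A1, DCN and the endothelial gene PECAM1. KRT14 read 90.1 to 182 on the medium arrays and 386 to 573 on the drug arrays. The leukocyte gene PTPRC, the hepatocyte gene ALB and the epithelial gene EPCAM lay below the median on all 8.

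TXNIP had the largest differences of the 6 genes with siBRAF and with vemurafenib. Its brightest probe set, 201010_s_at, read 2717 with siBRAF and 204 with siCont in normal medium, a 13.2-fold higher level with siBRAF. In glutamine-free medium it read 2411 with siBRAF and 257 with siCont, 9.35-fold higher with siBRAF. The siATF4 array in normal medium lay between these levels and near the siCont arrays, at 371. Both siBRAF arrays thus stood well above the other 3 medium arrays.

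TXNIP went the same way in cells given vemurafenib for 4 h. The siBRAF pairs and the vemurafenib pair are called the BRAF comparisons below, after their intended target, and BRAF activity was not measured. TXNIP read 3839 with siATF4 in vemurafenib, 2032 with siCont in vemurafenib and 252 with siCont in DMSO. It was thus 8.03-fold higher in vemurafenib than in DMSO, and 15.2-fold higher in vemurafenib with siATF4 than in DMSO with siCont. That last pair differs in both siRNA and drug, and it put TXNIP at rank 1 from the top among 13230 genes, and in siCont cells vemurafenib put it at rank 5 among 13160. In the siBRAF comparisons it held rank 30 among 13346 genes in normal medium and rank 120 among 13496 in glutamine-free medium. In bulk RNA, a larger share of cells that express a gene and more of its RNA per cell cannot be told apart.

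**Figure D1:**
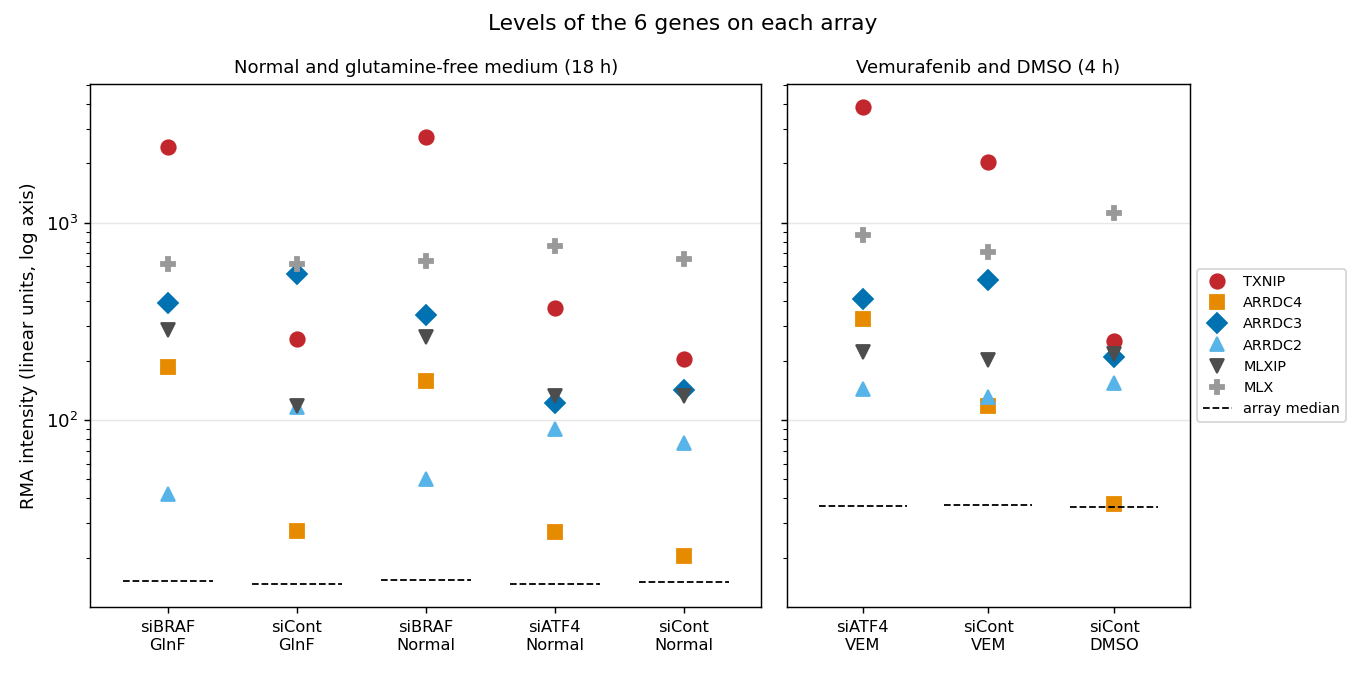
RMA intensity (log axis) of the 6 genes, 1 probe set each, on the 5 medium arrays (left) and the 3 vemurafenib and DMSO arrays (right), where each point is a single array and dashed lines are array medians. TXNIP stands at 2411 and 2717 on both siBRAF arrays and at 2032 and 3839 on both vemurafenib arrays, against 204 to 371 on the other medium arrays and 252 in DMSO.

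The 3 TXNIP probe sets gave like differences. With siBRAF they were higher by 3.55 to 3.73 on the log2 scale in normal medium and by 3.21 to 3.26 in glutamine-free medium. Vemurafenib gave 2.62 to 3.01 in siCont cells. With siATF4 they were higher by 0.92 to 0.97 in vemurafenib and by 0.55 to 0.86 in normal medium, which is less than 2-fold in both settings. The brightest probe set held rank 39 among 13173 genes in vemurafenib and rank 115 among 13170 in normal medium, where the 99th percentiles of all genes were 0.67 and 0.82. All 3 IDs end in _s_at, the ending for probe sets that can match several transcripts of a gene or family.

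ARRDC4, an alpha-arrestin close to TXNIP in sequence and also known as a target of MLXIP, was also higher on the siBRAF and vemurafenib arrays. Its probe set 225283_at read 159 with siBRAF and 20.5 with siCont in normal medium, 7.42-fold higher with siBRAF. In glutamine-free medium it read 187 with siBRAF and 27.5 with siCont, 6.58-fold higher with siBRAF. The siCont values lay not far above their array medians of 15.1 and 14.8, so the size of these folds depends on background. With log2(intensity + 16) the differences were 2.26 in normal and 2.22 in glutamine-free medium. With siATF4 in normal medium it read 27.2, close to the siCont arrays, so that the siBRAF arrays again stood apart from the other 3.

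In the drug set ARRDC4 read 324 with siATF4 in vemurafenib, 118 with siCont in vemurafenib and 37.7 with siCont in DMSO. The DMSO value lay just above that array's median of 36.4, and the size of differences against it therefore depends on background. Vemurafenib gave a 3.08-fold higher level in siCont cells, rank 32 from the top. With siATF4 in vemurafenib the level was 2.73-fold higher than with siCont in vemurafenib, which was rank 2 among 13173 genes. In normal medium siATF4 gave a difference of 0.39, and whether the siATF4 effect differs between the settings was not tested.

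The promoters of TXNIP and ARRDC4 are shown because these genes moved together, and that of ARRDC3 because it followed a different pattern. Each is the run of 250 bases before a transcript start, taken from RefSeq on GRCh38.p14 and written 5′ to 3′ on the strand of the gene: TXNIP at chr1:145996580-145996829 (minus strand), ARRDC4 at chr15:97960453-97960702 (plus strand) and ARRDC3 at chr5:91383318-91383567 (minus strand). Capitals mark matches, on either strand, to any of 5 motifs: the E box CACGTG, the spaced pair of E box-like sites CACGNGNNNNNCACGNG, which is a form of the carbohydrate response element, the forkhead core GTAAACA, the CCAAT box, and the ATF4 composite site TGATGNAAT.
TXNIP: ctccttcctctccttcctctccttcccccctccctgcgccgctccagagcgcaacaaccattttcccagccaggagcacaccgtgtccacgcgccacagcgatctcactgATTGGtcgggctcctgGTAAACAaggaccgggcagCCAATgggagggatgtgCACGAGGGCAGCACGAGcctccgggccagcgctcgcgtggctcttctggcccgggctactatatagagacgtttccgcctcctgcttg
ARRDC4: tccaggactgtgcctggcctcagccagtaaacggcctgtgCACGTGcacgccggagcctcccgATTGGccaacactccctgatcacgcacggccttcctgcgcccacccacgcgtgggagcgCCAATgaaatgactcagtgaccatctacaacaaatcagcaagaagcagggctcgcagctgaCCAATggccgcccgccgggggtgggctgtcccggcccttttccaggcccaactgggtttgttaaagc
ARRDC3: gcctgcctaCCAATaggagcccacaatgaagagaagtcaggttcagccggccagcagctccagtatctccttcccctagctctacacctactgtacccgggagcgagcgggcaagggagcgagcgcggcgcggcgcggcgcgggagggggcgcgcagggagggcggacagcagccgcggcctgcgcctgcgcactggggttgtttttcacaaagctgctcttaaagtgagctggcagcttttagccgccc

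The TXNIP window held the spaced pair as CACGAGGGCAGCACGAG, from base 88 to base 72 before the start, with a CCAAT box on either strand and a forkhead core upstream of it. The spaced pair is rare: 0.0456% of 35116 promoter windows of the same length held it, 16 windows in all. ARRDC4 did not hold it in these letters but had an E box from base 210 to base 205 before the start, found in 6.34% of windows, and 3 CCAAT boxes, a motif found in 32% of windows. ARRDC3 had 1 CCAAT box here. Its other start had a forkhead core, found in 2.98% of windows, from base 29 to base 23. MLX had an E box from base 50 to base 45. None of the 9 windows of the 6 genes held the ATF4 composite site, which 0.888% of all windows hold. No matches overlapped in the printed windows. The motifs were chosen with the TXNIP window in view, and a match is a description of letters, not of binding.

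ARRDC3, an alpha-arrestin known for directing beta-adrenergic receptors and integrin beta 4 to degradation, had its highest medium value in siCont cells without glutamine. Probe set 224797_at read 547 in glutamine-free and 142 in normal medium in siCont cells, 3.82-fold higher without glutamine. In siBRAF cells it read 392 in glutamine-free and 342 in normal medium, a difference of 0.20. The siBRAF arrays thus lay between the siCont arrays, and the siATF4 array in normal medium had the lowest level, 121.

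The difference between siBRAF and siCont had opposite signs in the media for ARRDC3, which was not tested. The gene was 2.39-fold higher with siBRAF in normal medium and 1.39-fold lower with siBRAF in glutamine-free medium. In the drug set it read 411 with siATF4 in vemurafenib, 510 with siCont in vemurafenib and 207 with siCont in DMSO. Vemurafenib gave a 2.45-fold higher level in siCont cells, rank 58 from the top, and siATF4 gave a difference of -0.31 in vemurafenib and of -0.23 in normal medium. ATF4 moved with ARRDC3 in part: it read 4360 in glutamine-free and 1814 in normal medium in siCont cells, 1498 and 1519 in siBRAF cells, and 4548 in vemurafenib and 2390 in DMSO in siCont cells. With siATF4 in vemurafenib ATF4 read 757, while ARRDC3 was 1.98-fold higher than with siCont in DMSO. Against siCont in the same setting, ARRDC3 was lower with siATF4 by less than 2-fold. The part of ATF4 in the ARRDC3 result was not tested.

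ARRDC2, a further alpha-arrestin whose function is less well known, was the only member of the 6 at least 2-fold lower in any of these comparisons. Probe set 226055_at read 42.2 with siBRAF and 117 with siCont in glutamine-free medium, 2.72-fold lower with siBRAF. In normal medium it read 50 with siBRAF, 89.6 with siATF4 and 76.0 with siCont, a difference of -0.59 for siBRAF. In the drug set it read 144 with siATF4 in vemurafenib, 131 with siCont in vemurafenib and 154 in DMSO, all within 2-fold of each other. The siBRAF arrays had the lowest ARRDC2 levels of the medium set and the highest TXNIP levels.

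MLXIP, the glucose-responsive factor itself, was higher with siBRAF and within 2-fold throughout the drug set. Probe set 202519_at read 286 with siBRAF and 118 with siCont in glutamine-free medium, 2.41-fold higher with siBRAF. In normal medium it read 264 with siBRAF, 132 with siATF4 and 132 with siCont, and the siBRAF value was 1.99-fold higher, just under the threshold. A second well measured probe set, 225157_at, gave differences of 1.09 and 0.91 in the same comparisons. The other 2 probe sets lay below the median on all 8 arrays, and 1 of them, 1554886_a_at, was at -0.14 with siBRAF in glutamine-free medium. With all 4 averaged the difference there was 0.80, under 2-fold. In vemurafenib MLXIP read 221 with siATF4 and 202 with siCont, against 216 in DMSO, while TXNIP differed by 8.03-fold between the siCont pair.

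MLX, the DNA-binding partner, changed little with medium or siRNA and was lower with the drug. Probe set 213708_s_at read 616 with siBRAF and 618 with siCont in glutamine-free medium, and 642 with siBRAF, 758 with siATF4 and 656 with siCont in normal medium. It read 865 with siATF4 in vemurafenib, 707 with siCont in vemurafenib and 1121 in DMSO, 1.58-fold lower in vemurafenib in siCont cells. Probe sets 217909_s_at and 217910_x_at gave -0.82 and -0.60 for the same pair, 210752_s_at gave -0.38, and 231401_s_at and 1570347_at, which lay near the array median, gave -0.14 and -0.06. No MLX probe set reached 2-fold in any comparison.

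**Figure D2:**
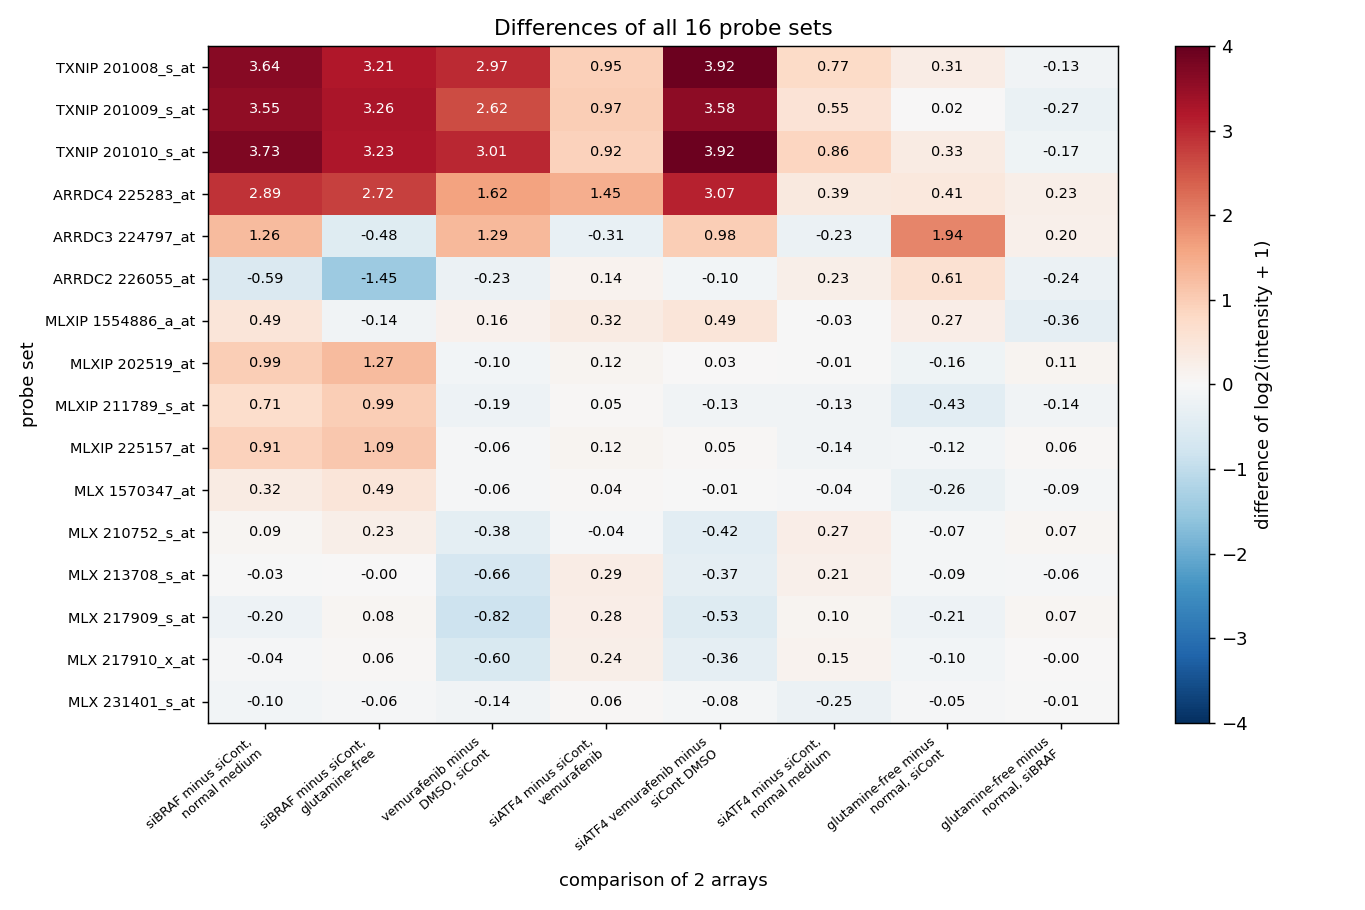
Differences of log2(intensity + 1), first array minus second, for all 16 probe sets (down) in 8 comparisons of single arrays (across), with red for higher and blue for lower values. The 3 TXNIP probe sets agree to within 0.39 in every column, MLXIP is higher mainly with siBRAF, and MLX is lower mainly with vemurafenib.

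Counted over the 6 genes, 3 were at least 2-fold higher with siBRAF in normal medium (TXNIP, ARRDC4, ARRDC3) and 0 lower. Of all 13346 genes in that pair 7.16% were higher and 7.61% lower. In glutamine-free medium 3 were higher with siBRAF (TXNIP, ARRDC4, MLXIP) and 1 lower (ARRDC2), where 12.8% of all genes were higher and 10.8% lower. With the mean of all probe sets of a gene MLXIP was under 2-fold there, which left 2 higher and 1 lower. The 6 genes had median differences of 1.12 and 0.63 in these pairs, and all genes had -0.01 and 0.02. The summed intensity of the melanocyte and neural crest markers was 4002 with siBRAF and 1952 with siCont in normal medium. In glutamine-free medium it was 3631 with siBRAF and 2012 with siCont. S100B weighed heavily on this sum, reading 1302 with siBRAF and 288 with siCont in normal medium. In glutamine-free medium S100B read 1050 with siBRAF and 109.5 with siCont. Of 8 such markers that passed in each pair, 4 were at least 2-fold higher with siBRAF and 0 lower. Below 0 were 1 of them in normal and 2 in glutamine-free medium. The sum over markers of other cell types was 361 with siBRAF and 396 with siCont in normal medium, and 376 with siBRAF and 278 with siCont in glutamine-free medium. The part of these in the result was not tested.

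Vemurafenib in siCont cells gave 3 of 6 genes higher (TXNIP, ARRDC4, ARRDC3) and 0 lower, beside 0.859% of 13160 genes higher and 1.92% lower. ARRDC4 did not pass a filter at the 75th percentile in this pair, 140 on the vemurafenib array, which left 2 of 5 higher. The marker sum for melanocytes and neural crest was 2686 in vemurafenib and 2810 in DMSO. With siATF4 in vemurafenib 1 of 6 was higher, ARRDC4, and 0 lower, beside 0.205% of all genes higher and 0.729% lower. With siATF4 in normal medium 0 of 6 were apart, beside 0.471% of all genes higher and 0.387% lower. The median of the 6 genes was 0.60 with vemurafenib, 0.21 with siATF4 in vemurafenib and 0.22 with siATF4 in normal medium, and for all genes these medians were 0.02 to 0.03. With siATF4 in vemurafenib against siCont in DMSO, 2 of 6 were higher (TXNIP and ARRDC4), beside 1.91% of all genes, and 0 were lower, beside 2.82%. ARRDC3 was just under the threshold in this pair, at 1.98-fold higher.

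The 2 siBRAF comparisons and the vemurafenib comparison have no array in common. TXNIP and ARRDC4 were at least 2-fold higher in all 3, as were 49 of 12506 genes, 0.392%. Glutamine withdrawal and vemurafenib in siCont cells likewise share no array, and ARRDC3 was the member higher in both, as were 31 of 12669 genes, 0.245%.

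Glutamine withdrawal itself gave ARRDC3 as the only 1 of the 6 genes at least 2-fold higher in siCont cells, beside 5.76% of all genes, and 0 lower, beside 7.22%. TXNIP was at 0.33, ARRDC4 at 0.41, ARRDC2 at 0.61, MLXIP at -0.16 and MLX at -0.09. In siBRAF cells 0 of 6 were apart, beside 0.0457% of all genes higher and 0.0761% lower, and their differences ran from -0.24 to 0.23. The response in siBRAF cells minus that in siCont cells was -1.74 for ARRDC3, where 5.7% of 13713 genes were at least 2-fold more negative and 7.55% at least 2-fold more positive. It was -0.85 for ARRDC2, -0.50 for TXNIP and between -0.17 and 0.28 for the other 3.

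**Figure D3:**
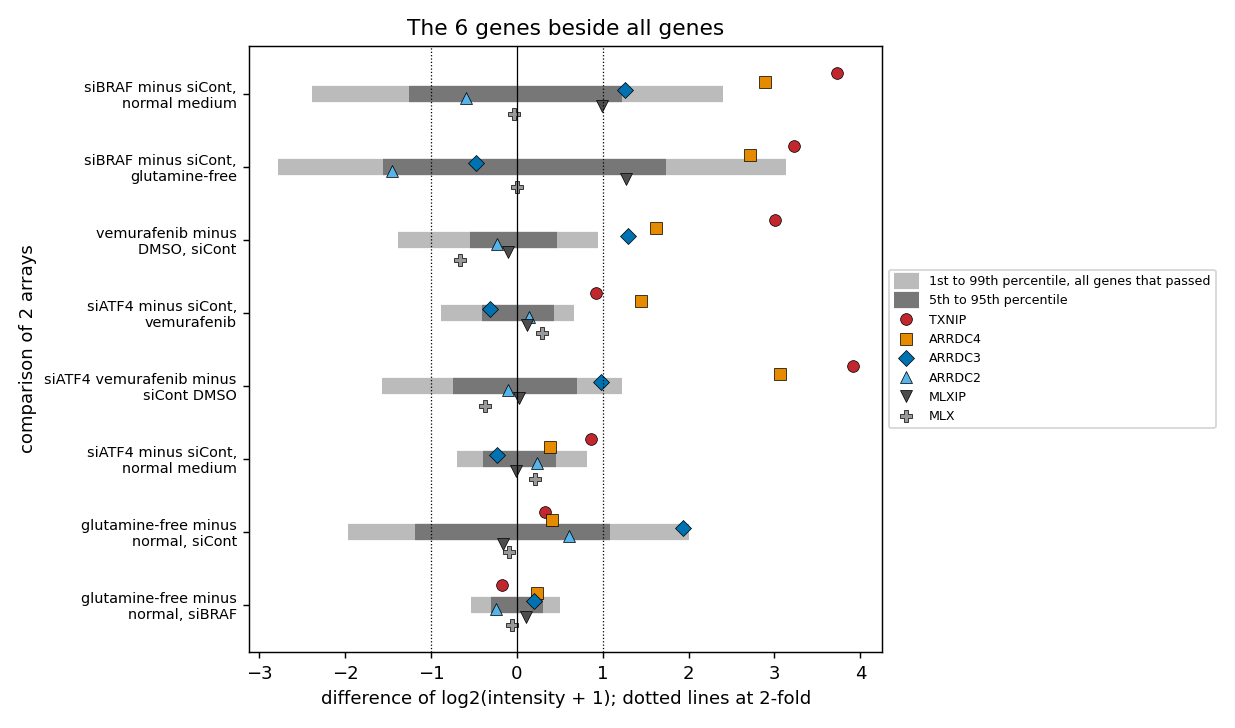
Differences of log2(intensity + 1) for the 6 genes (symbols, 1 probe set each) in 8 comparisons of single arrays, over bars that span the 1st to 99th and 5th to 95th percentiles of all genes that passed the filter. TXNIP, ARRDC4 and ARRDC3 lie right of the 99th percentile in the vemurafenib comparison, at 3.01, 1.62 and 1.29 against 0.95. ARRDC3 lies at 1.94 without glutamine in siCont cells, where the 99th percentile is 2.01.

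Genes with a pattern like that of a member were ranked by the root mean square distance of log2 values, each centred on its array set, over all 8 arrays and 4506 genes. The gene closest to TXNIP was ARRDC4, at 0.44, followed by the neural crest factor FOXD3 (0.53), the helix-loop-helix inhibitor ID2 (0.58), STON1 (0.63) and the stress protein gene SESN3 (0.64), where the median gene lay at 1.73. ARRDC4 lay closest to GAS6-AS1 (0.37), FAM13C (0.38), the growth factor gene FGF1 (0.42), TXNIP and the transcription factor gene ZEB2 (both 0.44), against a median of 1.43. ARRDC3 had other neighbours: NFIL3 (0.21), a repressor gene, PRKAB2 (0.22), a subunit of the energy sensor AMPK, TSC22D3 (0.22), SLFN5 (0.25) and CLIP4 (0.26), against a median of 0.95. TXNIP and ARRDC3 lay 1.38 apart, where TXNIP was at rank 4160 counted from ARRDC3 and ARRDC3 at rank 1173 counted from TXNIP.

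Other targets described for MLXIP or its paralog MLXIPL were not at least 2-fold higher in the BRAF comparisons. Of 7 that passed the filter, 0 were at least 2-fold higher and 3 were lower with siBRAF in normal medium: HK2 (-1.93), the enzyme that phosphorylates incoming glucose, PFKFB3 (-1.22), which drives glycolysis, and the fatty acid synthase FASN (-1.09). With vemurafenib 0 were higher and 2 lower, RGS16 (-1.51) and PFKFB3 (-1.27). In glutamine-free medium with siBRAF 0 were higher and 2 lower, HK2 (-1.96) and the repressor gene KLF10 (-1.87). KLF10 was at 2.22 without glutamine in siCont cells, the 1 gene higher there, and PFKFB3 at -1.35 the 1 lower. The medians of the 7 were -0.39, -0.76, 0.23 and -0.68 in these 4 comparisons, and those of all genes ran from -0.05 to 0.02. Of all genes, 7.16%, 0.859%, 12.8% and 5.76% were at least 2-fold higher there, and 7.61%, 1.92%, 10.8% and 7.22% lower. MLXIPL read 21.3 with siBRAF and 18.7 with siCont in normal medium, close to the array median.

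Glucose entry genes split in the siBRAF comparisons. Of 9 that passed in normal medium, 3 were at least 2-fold higher: the hexokinase-like gene HKDC1 (3.16) and the transporter genes SLC2A10 (2.28) and SLC2A12 (2.05). Another 2 were lower, HK2 and the glucose transporter gene SLC2A3 (-1.81). In glutamine-free medium the same 5 genes were apart the same way, HKDC1 at 3.24 and SLC2A3 at -2.22. SLC2A10 lay below the array median with siCont in both media and SLC2A12 in glutamine-free medium, where background weighs on the size of a difference. The medians of the list were -0.15 and 0.21. Of all genes, 7.16% and 12.8% were at least 2-fold higher in these pairs, and 7.61% and 10.8% lower. Without glutamine in siCont cells SLC2A12 (-1.06) was the 1 of 8 apart, beside 7.22% of all genes lower. With vemurafenib SLC2A3 (-1.92) was the 1 of 8 apart, beside 1.92% of all genes lower. The list median with vemurafenib was -0.12, and HKDC1 was at -0.02. SLC2A1, which encodes the glucose transporter that TXNIP is known to internalise, was at -0.60 with siBRAF in normal medium, 0.21 in glutamine-free medium and -0.81 with vemurafenib. With siATF4 in normal medium SLC2A1 was at -1.60 and HK2 at -1.02, both lower, while TXNIP was at 0.86. With siATF4 in vemurafenib, against siCont in vemurafenib, SLC2A1 was at -0.04, HK2 at -0.23 and TXNIP at 0.92.

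Among partners in the MLX and MAX network, MYC moved opposite to TXNIP in the BRAF comparisons. It read 45.5 with siBRAF and 133 with siCont in normal medium, 43.6 with siBRAF and 1321 with siCont in glutamine-free medium, and 52.6 in vemurafenib and 471 in DMSO in siCont cells. Its differences were -1.52, -4.89 and -3.14. It was the 1 of 9 partners apart with siBRAF in normal medium and the 1 of 8 with vemurafenib. With siBRAF in glutamine-free medium 2 of 9 were lower, MYC and MXD1 (-2.87), and 0 higher. The list medians were -0.14 with siBRAF in normal medium, -0.01 with siBRAF in glutamine-free medium and 0.10 with vemurafenib. Of all genes, 7.61%, 10.8% and 1.92% were at least 2-fold lower there, in the same order. Without glutamine in siCont cells MXD1 (3.58) and MYC (3.31) were higher and MXI1 (-1.09) was lower, beside 5.76% and 7.22% of all genes. MAX itself stayed between -0.41 and 0.17 in the 7 comparisons of a single factor.

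**Figure D4:**
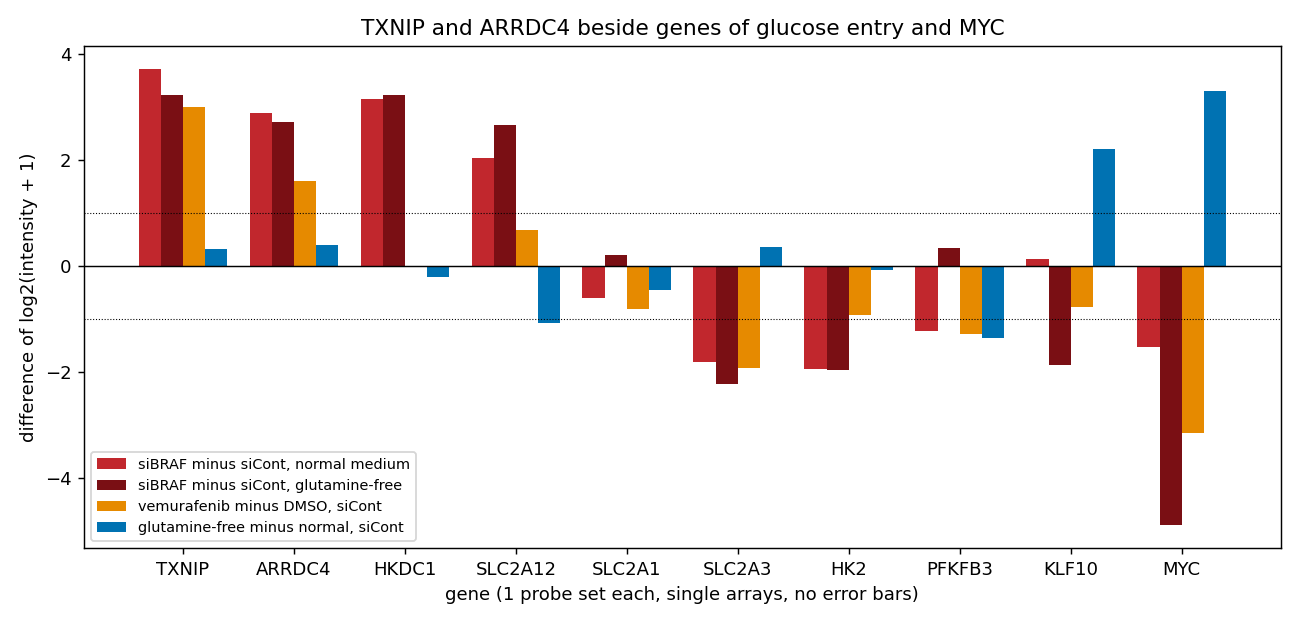
Differences of log2(intensity + 1) for TXNIP, ARRDC4 and 8 other genes in 4 comparisons of single arrays, as bars from 0 with dotted lines at 2-fold and no error bars. TXNIP and ARRDC4 are higher in all 3 BRAF comparisons, where SLC2A3 and MYC are lower, while HKDC1 is higher with siBRAF but at -0.02 with vemurafenib.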

How the data were processed

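RNA from 8 A375 cultures was measured on Affymetrix arrays, with biotinylated cRNA made from 5 ug of total RNA, per the labels' protocols. The authors deposited intensities on a linear scale, processed with RMA per the submitters' processing notes. The version is not given in the sources used here. Genes were named from the platform annotation, using probe sets with exactly 1 symbol (41091 of 54675). Without further normalization the values were put on the log2(intensity + 1) scale. Each gene took the values of the probe set whose mean log2 value over the 8 arrays was highest, and passed in a pair if the higher value reached the 50th percentile of its array. Calls were at 2-fold. No significance test was run, since each condition has 1 array, and the number of arrays limits the precision. The code for the fold calls was run on simulated arrays, with changes put into brighter genes only. That run does not measure the error between single real arrays. Promoters came from RefSeq tables on GRCh38.p14. The rule named the 6 genes, ATF4, at most 4 genes of a list per comparison among those at least 2-fold apart, and 5 nearest genes. SLC2A1, MLXIPL, MAX, MLANA, SOX10, PTPRC, ALB, EPCAM, KRT14, KRT5, COL1A1, DCN, PECAM1 and the flat values of named genes are outside it and were chosen after their values were seen. The genes and lists were chosen with earlier results of these data known. Work used Python 3.11.15, numpy 2.4.6 and pandas 2.3.3. Alternatives varied the added constant, the filter, the probe set and the normalization.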

Additional observations from a re-analysis of the deposited data

Results flagged for a closer look

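Several differences had opposite signs in a pair of backgrounds, each from single arrays, and none of these contrasts was tested. Comparing siBRAF with siCont, ARRDC3 was at -0.48 in glutamine-free and 1.26 in normal medium. Comparing glutamine-free with normal medium, TXNIP was at -0.17 in siBRAF and 0.33 in siCont cells, ARRDC2 at -0.24 in siBRAF and 0.61 in siCont cells, and MLXIP at 0.11 in siBRAF and -0.16 in siCont cells. Comparing siATF4 with siCont, MLXIP was at 0.12 in vemurafenib and -0.01 in normal medium. Apart from the ARRDC3 value of 1.26, these are all under 2-fold.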

How the results depend on the processing

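Over 7 alternatives, 55 of 56 counts of members at least 2-fold apart stayed within 1.5 times, and 321 of 323 differences of single members kept their side of 2-fold where the member passed. Much of this agreement was fixed in advance. Changing the filter decides which members pass but leaves each difference as it was. The choice of probe set cannot move ARRDC2, ARRDC3 or ARRDC4, which have 1 each. ARRDC4 did not pass at the 75th percentile with vemurafenib in siCont cells, which gave 2 of 5 members higher. The count for siATF4 in vemurafenib against siCont in DMSO became 1 without shared probe sets, because TXNIP has no other probe set. MLXIP moved to 0.80 with siBRAF in glutamine-free medium when all its probe sets were averaged, and to 1.03 in normal medium under quantile normalization. With log2(intensity + 16) ARRDC4 was at 2.26 with siBRAF in normal medium and 1.32 with vemurafenib. Counts over all genes moved more: the 113 genes apart with siATF4 in normal medium became 56 with 16 added before log2, 68 when values had to reach the 75th percentile and 71 with the mean of probe sets, with its 62 higher at 34 and 35 in the first pair of these settings and its 51 lower at 22, 33 and 28. The 27 higher with siATF4 in vemurafenib became 8, 12 and 17. The 113 higher with vemurafenib became 75 with that percentile and 70 with the mean of probe sets, and the 253 higher with siATF4 in vemurafenib against siCont in DMSO became 164, 148 and 149, with 398 in place of 626 either way for the mean. The 964 lower without glutamine in siCont cells became 630 with log2(intensity + 16) and 633 with the mean, and the 16 apart in siBRAF cells became 9 with log2(intensity + 16) and 10 with that percentile, its 10 lower becoming 4 in both and 6 without shared probe sets. The 75th percentile also left fewer genes to count. With siATF4 in normal medium it left 8083 in place of 13170, of which 0.841% were apart in place of 0.858%. With vemurafenib 3.32% of 8102 genes were apart in place of 2.78% of 13160. For siATF4 in normal medium the share was 0.425% with log2(intensity + 16) and 0.598% with the mean of probe sets. The cause of the moves under the other settings was not tested. No paired analysis was possible because each condition has 1 array, and no replicate could be left out.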

Other observations

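NEDD4 family ubiquitin ligases, which alpha-arrestins recruit through short proline-rich motifs, had 9 measured genes. Without glutamine in siCont cells 3 of these reached 2-fold higher and 0 reached 2-fold lower: NEDD4L (2.13), NEDD4 (1.38) and ITCH (1.01), the ligase known to ubiquitinate TXNIP. With siBRAF in glutamine-free medium 4 of 9 were lower, NEDD4L (-3.71), NEDD4 (-1.49), SMURF2 (-1.48) and ITCH (-1.31), and 2 were higher, WWP1 (1.14) and HECW2 (1.01). In normal medium NEDD4L (-1.49) and SMURF2 (-1.20) were lower with siBRAF, and with vemurafenib the same genes were at -2.11 and -1.33. The medians of the 9 were 0.74 without glutamine in siCont cells, -0.22 and 0.14 with siBRAF in glutamine-free and normal medium, and -0.08 with vemurafenib. In the same order, 5.76%, 12.8%, 7.16% and 0.859% of all genes were at least 2-fold higher. The shares of all genes at least 2-fold lower were 7.22%, 10.8%, 7.61% and 1.92%.

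In the thioredoxin system, the partner protein gene TXN read 2373 with siBRAF and 4085 with siCont in normal medium, a difference of -0.78, and 5719 in vemurafenib and 5408 in DMSO. Of 10 genes that passed, 0 were apart with siBRAF in normal medium or with vemurafenib, beside 14.8% and 2.78% of all genes. Without glutamine in siCont cells TXNRD1 was at 1.01 and PRDX1 at -1.39, beside 5.76% of all genes higher and 7.22% lower. PRDX1 just reached 2-fold higher with siBRAF in glutamine-free medium, beside 12.8% of all genes. The iron transporter gene SLC11A2, reported cargo of alpha-arrestins, was at 1.03 with siBRAF in glutamine-free medium. It was the 1 of 4 cargo genes apart there, beside 12.8% of all genes higher. Of 6 partners in the ESCRT sorting machinery, 0 were apart in the comparisons of a single factor, where 0.122% to 23.7% of all genes were apart. Among other arrestins ARRDC1 and ARRB1 were measured, and neither reached 2-fold, beside the same shares.

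The spaced pair of E box-like sites stood in the promoter windows of 16 genes, of which 14 passed the filter in each comparison. With siBRAF in normal medium TXNIP (3.73) and MYL5 (1.07) were at least 2-fold higher and RAN (-1.32) lower, beside 7.16% and 7.61% of all genes. With vemurafenib TXNIP was the 1 gene apart, beside 0.859% of all genes higher and 1.92% lower. Without glutamine in siCont cells GFPT1 (1.67), which opens the hexosamine pathway and uses glutamine, was higher and P4HA1 (-1.35) lower. Of all genes 5.76% were higher and 7.22% lower there. These genes were looked up after the TXNIP window had been read.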
